A study of Mus musculus with 4 samples.

Results

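The matrix metalloproteases (Mmp genes), the Adamts proteases and their tissue inhibitors (Timp genes) were taken by symbol from the deposited count tables: every row named Adamts, Mmp or Timp followed by a number (and, for Mmp, a letter a or b). This gave 46 of the 78028 rows: 23 Mmp genes, 19 Adamts genes and 4 Timp genes. The naming rule uses no measured value, but the family was chosen with earlier results of these data known. The tables hold 4 libraries of 1 group, numbered 1 to 4 as in the labels, each from its own culture of E14TG2a mouse embryonic stem cells taken through the A-HIC protocol, which is named for its advanced hepatic-inducing cocktail. The labels call the cells hepatocyte-like, and the series asks about hepatic identity and maturity. No untreated stem cells, liver or other group is analysed here, so every comparison is between genes or between the 4 cultures, and all cultures descend from 1 cell line.

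Mmp proteases are secreted or membrane-bound zinc enzymes, made as inactive precursors, that cut collagens, laminins, fibronectin and cell-surface proteins. Adamts proteases are related secreted enzymes with thrombospondin repeats that cut proteoglycans, trim procollagens or act on fibrillin, cartilage oligomeric matrix protein (COMP) or von Willebrand factor. Timp proteins bind the active site of these enzymes, and Timp2 also takes part in activating the Mmp2 precursor together with Mmp14 at the cell surface. In the liver, stellate cells, portal fibroblasts and macrophages are the main known sources of these genes, while parietal endoderm of the early embryo is known for laying down a thick basement membrane.

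The libraries held 37.8, 40.2, 29.5 and 40.1 M counts. The label was checked against marker genes, as summed TPM (transcripts per 1000000, a level corrected for gene length and depth). The 17 hepatocyte markers summed to 26.2, 78.6, 25.2 and 43.4 TPM in libraries 1 to 4, 3 of the 17 reached 1 TPM in every library, and Cyp2e1 and G6pc1 had no count. All 14 pluripotency markers were above 1 TPM, with sums of 8799, 5012, 8089 and 6017 TPM. All 14 parietal endoderm markers were above 1 TPM, with sums of 3808, 11525, 4601 and 8886 TPM. The values therefore go against the label, and the samples are called the libraries labelled hepatocyte-like. The cultures also differed in these sums: libraries 2 and 4 were higher in parietal endoderm markers and lower in pluripotency markers than libraries 1 and 3. These are bulk RNA values, in which fewer cells of a type and less RNA per cell cannot be told apart.

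Sequence upstream of the genes split the members with a promoter entry by where they lie. The RefSeq promoter set used here, on GRCm38.p6, covered 32 of the 46 members. The 250 bases before the start were searched on both strands for 4 short motifs. The 32 members had 35 entries, and a member was counted if any of its entries matched. Shares of all promoters are per entry. The AP-1 motif, TGANTCA, was in 8 of the 32 members, against 6.75% of 32851 promoters. All 8 belong to a run of 10 neighbouring Mmp genes on chromosome 9 (Mmp13, Mmp12, Mmp1b, Mmp3, Mmp1a, Mmp10, Mmp8, Mmp27, Mmp20 and Mmp7), and none of the other 22 members with an entry held it. The 14 members without an entry, among them Mmp2 and Mmp9, all lie outside the run and could not be searched. The GC box, spelled GGGCGG and on the other strand as CCGCCC, showed the opposite: it was in 16 of the 22 members outside the run and in 0 of the 10 inside it, against 32.7% of all promoters. The TATA box, spelled TATAAA and on the other strand as TTTATA, was in 9 of the 32 members, 7 of them in the run, against 12.4% of promoters. The AP-1 motif and the TATA box stood together in 7 members, all in the run, against 1.21% of promoters. The binding site of Gata factors, spelled AGATAA and on the other strand as TTATCT, was in 3 of the 32 against 9.99%. The genes of the run are neighbours and related copies, so their promoters are not independent of each other. A match describes letters and does not show a bound site.

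The 8 promoters below show both kinds. The first 4 belong to abundant or culture-variable members outside the run and carry GC boxes. The last 4 belong to genes of the run and carry the AP-1 motif and the TATA box. Each is written from 5′ to 3′ on the strand of the gene and ends at the base before the RefSeq start, with the matches in capitals.

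Timp1 (chrX:20869916-20870165, plus strand): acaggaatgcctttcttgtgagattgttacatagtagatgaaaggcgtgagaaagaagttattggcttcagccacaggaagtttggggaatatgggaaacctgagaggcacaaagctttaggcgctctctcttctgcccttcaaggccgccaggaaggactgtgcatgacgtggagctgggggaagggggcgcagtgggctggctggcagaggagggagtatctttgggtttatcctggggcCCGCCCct
Timp3 (chr10:86300162-86300411, plus strand): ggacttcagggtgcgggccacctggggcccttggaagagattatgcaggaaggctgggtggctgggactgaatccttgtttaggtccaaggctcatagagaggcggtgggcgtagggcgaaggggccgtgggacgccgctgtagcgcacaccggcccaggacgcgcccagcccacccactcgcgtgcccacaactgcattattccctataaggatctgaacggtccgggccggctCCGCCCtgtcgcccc
Adamts9 (chr6:92943535-92943784, minus strand): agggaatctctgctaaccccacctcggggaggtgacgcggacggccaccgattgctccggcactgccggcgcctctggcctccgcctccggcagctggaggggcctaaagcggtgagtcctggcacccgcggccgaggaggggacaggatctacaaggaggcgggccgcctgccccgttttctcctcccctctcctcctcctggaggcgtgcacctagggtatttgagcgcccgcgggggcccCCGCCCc
Mmp14 (chr14:54431348-54431597, plus strand): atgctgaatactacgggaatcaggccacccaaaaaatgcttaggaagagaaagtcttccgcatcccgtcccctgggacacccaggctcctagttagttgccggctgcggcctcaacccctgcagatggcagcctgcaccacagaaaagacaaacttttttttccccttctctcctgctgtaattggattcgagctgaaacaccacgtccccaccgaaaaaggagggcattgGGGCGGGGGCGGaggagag
Mmp3 (chr9:7445572-7445821, plus strand): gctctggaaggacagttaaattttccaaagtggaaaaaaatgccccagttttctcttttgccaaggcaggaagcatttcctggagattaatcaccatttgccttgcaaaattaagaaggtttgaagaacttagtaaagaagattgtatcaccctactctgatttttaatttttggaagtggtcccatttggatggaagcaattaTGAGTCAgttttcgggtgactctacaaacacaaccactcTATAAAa
Mmp10 (chr9:7502092-7502341, plus strand): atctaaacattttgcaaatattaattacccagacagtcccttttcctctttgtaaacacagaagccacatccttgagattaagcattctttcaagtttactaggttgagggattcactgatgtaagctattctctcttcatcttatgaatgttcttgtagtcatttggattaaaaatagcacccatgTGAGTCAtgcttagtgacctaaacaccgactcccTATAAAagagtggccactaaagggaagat
Mmp13 (chr9:7272264-7272513, plus strand): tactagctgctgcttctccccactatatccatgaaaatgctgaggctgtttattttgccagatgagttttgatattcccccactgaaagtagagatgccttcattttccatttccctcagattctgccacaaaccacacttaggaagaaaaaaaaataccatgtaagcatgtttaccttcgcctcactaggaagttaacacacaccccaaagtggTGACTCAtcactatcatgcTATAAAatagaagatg
Mmp1a (chr9:7463891-7464140, plus strand): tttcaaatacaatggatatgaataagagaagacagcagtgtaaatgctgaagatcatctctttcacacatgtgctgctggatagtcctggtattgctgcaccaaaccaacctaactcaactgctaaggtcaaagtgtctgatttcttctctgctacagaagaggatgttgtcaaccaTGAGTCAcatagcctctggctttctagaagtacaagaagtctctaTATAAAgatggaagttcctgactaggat

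Counted back from the start, the GC box ended 3 bases before it in Timp1, 10 in Timp3, 2 in Adamts9 and 8 in Mmp14, which carries a pair of adjoining boxes. In the run, the AP-1 motif began 46 bases before the start in Mmp3, 63 in Mmp10, 35 in Mmp13 and 73 in Mmp1a, each time upstream of the TATA box. Of the 16 members with a GC box, 13 reached 1 TPM in every library. Of the 8 with the AP-1 motif 2 did (Mmp3 and Mmp10), against 17 of the 32 members with an entry. The GC box was found only outside the run and the AP-1 motif only in it, so motif and place cannot be told apart. Mmp8 and Mmp27, of the run but without the AP-1 motif, did not reach 1 TPM in every library either.

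Across the 46 genes, mean levels ran from 304 TPM to 0.0126 TPM. Genes that reached 1 TPM in each of the 4 libraries are called expressed, which 28 of the 46 were, against 63.4% of protein-coding genes. The mean of log2(TPM + 0.1) was also tested against its value at 1 TPM by limma across all 28006 genes with a count and a length. By that test 26 members were above 1 TPM, 13 were below and 7 did not differ from it at an adjusted p of 0.05. Among protein-coding genes in the fit, 71.5% were above and 19.4% below. Over all genes in the fit the shares were 52.1% and 34.2%. The members' median level was 1.64 on the log2 scale, against 3.63 for protein-coding genes. With 3 counts or fewer in every library, 3 members (Mmp7, Mmp20 and Adamts18) were not detected, against 16.9% of protein-coding genes. A limit of 3 counts corresponds to 0.0747 to 0.102 CPM (counts per 1000000), and it covers counting error only.

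**Figure D1:**
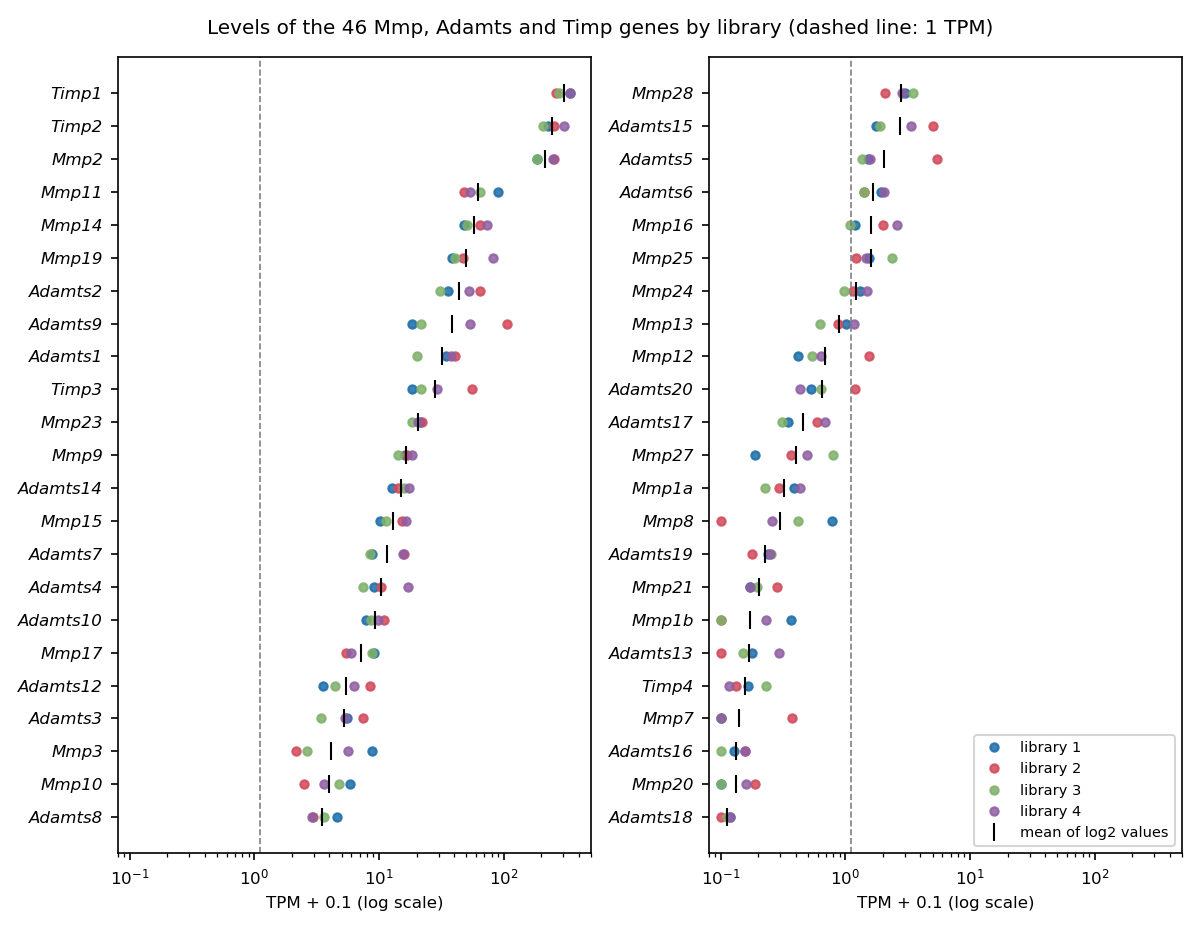
Level of each of the 46 genes in each of the 4 libraries (points, TPM + 0.1 on a log axis), ordered by the mean of the log2 values (vertical ticks); the dashed line marks 1 TPM. Timp1, Timp2 and Mmp2 stand at 184 TPM or more in every library, the points of Adamts9 spread from 18.2 to 106 TPM, and the lowest genes lie at the pseudocount of 0.1.

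The order of the levels was firm at few places. Of the 45 pairs of neighbours in that order, 5 kept the same order in all 4 libraries: Timp1 over Timp2, Mmp2 over Mmp11, Mmp23 over Mmp9, Adamts8 over Mmp28 and Mmp24 over Mmp13. The other neighbours changed places in at least 1 library, so their rank does not separate them.

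Per length, the 4 inhibitors together were the most abundant of the 3 classes. On the mean share of all counts, which ignores length, they were the least, at 0.0391% ± 0.00546 (SD, n = 4). Mmp genes held 0.0455% ± 0.00528 and Adamts genes 0.0474% ± 0.0218. The order against Adamts holds for the mean only: in libraries 1 and 3 the Timp share was above the Adamts share. Timp1, which inhibits many Mmp proteases and binds the Mmp9 precursor, stood at 340, 262, 274 and 338 TPM in libraries 1 to 4 (304 ± 41.0, SD, n = 4). Timp2 stood at 228, 252, 207 and 306 TPM (248 ± 42.8, SD, n = 4). Both were high in every library, with library 2 lowest for Timp1 and library 3 lowest for Timp2. Timp3, which binds to the matrix and also inhibits Adamts proteases, stood at 18.3, 55.2, 21.6 and 29.0 TPM (31.0 ± 16.7, SD, n = 4). Its library 2 value was the highest by a wide margin. Timp4, best known from heart muscle, had 4, 2, 6 and 1 counts and was below 1 TPM. Timp1 made up 52.2% ± 5.19 (SD, n = 4) of the summed Timp TPM, Timp2 42.4% ± 3.00 and Timp3 5.36% ± 2.95. Per length Timp1 was above Timp2 in 4 of 4 libraries, by 0.30 ± 0.24 on the log2 scale (SD, n = 4), a mean difference little larger than its SD. On CPM, which ignores length, Timp2 was the higher, by 1.84 on the log2 scale. Timp1 has 888 exonic bases and Timp2 has 3896, and Timp1 lies inside an intron of Syn1 on the X chromosome.

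The gelatinases, which cut denatured collagens and the type IV collagen of basement membranes, were led by Mmp2 at 184, 253, 185 and 249 TPM (218 ± 38.7, SD, n = 4). Libraries 2 and 4 were the higher. Mmp9 stood at 16.2, 16.7, 14.1 and 18.4 TPM (16.3 ± 1.75, SD, n = 4), one of the steadier members. Mmp2 was above Mmp9 in 4 of 4 libraries, by 3.72 ± 0.17 on the log2 scale of TPM + 0.1. Mmp2 alone made up 46.4% ± 4.31 of the summed Mmp TPM.

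Of the 6 membrane-type proteases, 4 were expressed. Mmp14, which activates the Mmp2 precursor, stood at 47.7, 63.9, 50.6 and 73.8 TPM (59.0 ± 12.1, SD, n = 4). Mmp15, another transmembrane form, stood at 9.98, 15.1, 11.2 and 16.4 TPM (13.2 ± 3.06). Both were higher in libraries 2 and 4 than in 1 and 3. Their log2 ratio was 2.16 ± 0.07 (SD, n = 4), the tightest between libraries of the 20 ratios computed. Its size depends on the scale: 2.97 with the longest transcript as length, 2.31 on CPM and 2.09 with a pseudocount of 1. Mmp17, held to the membrane by a lipid anchor, ran the other way, with 9.0, 5.29, 8.63 and 5.84 TPM (7.19 ± 1.89). Mmp25, also lipid-anchored, stood at 1.46, 1.11, 2.25 and 1.37 TPM (1.55 ± 0.489) and did not differ from 1 TPM by limma (adjusted p = 0.0808). Mmp16 had 1.10, 1.90, 0.981 and 2.50 TPM and Mmp24 1.22, 1.05, 0.867 and 1.39 TPM, and neither differed from 1 TPM (adjusted p = 0.117 and 0.603). Those values straddle 1 TPM from library to library.

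Among the stromelysins, Mmp11 stood apart from Mmp3 and Mmp10. Mmp11, which furin activates inside the cell, stood at 89.5, 48.1, 64.0 and 53.4 TPM (63.7 ± 18.4, SD, n = 4), highest in library 1. Mmp3, a stromelysin that cuts proteoglycans and laminin and activates other Mmp precursors, stood at 8.70, 2.08, 2.54 and 5.54 TPM (4.71 ± 3.07), on 162, 38, 36 and 104 counts. Mmp10 stood at 5.73, 2.40, 4.72 and 3.51 TPM (4.09 ± 1.45), on 102, 42, 64 and 63 counts. All of these were highest in library 1 and lowest in library 2. Mmp11 shares exonic bases on the opposite strand with Chchd10, which had 2355, 1336, 1576 and 1461 counts against 2570, 1359, 1401 and 1546 for Mmp11. The libraries keep no strand, so reads from the shared 155 bases cannot be assigned to either gene.

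The interstitial collagenases, which open the triple helix of fibrillar collagens, were near or below 1 TPM: none of the 4 (Mmp1a, Mmp1b, Mmp8 and Mmp13) was expressed. Mmp13 was the highest, at 0.905, 0.773, 0.522 and 1.08 TPM, and did not differ from 1 TPM (limma, adjusted p = 0.365). The other 3 were below it. Mmp1a and Mmp1b are similar copies whose reads may be shared, so their levels are uncertain. The metalloelastase Mmp12 had 24, 106, 25 and 41 counts, with library 2 the highest, and was not called either way (adjusted p = 0.145). The matrilysin Mmp7 had 0, 3, 0 and 0 counts.

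The remaining Mmp genes were uneven. Mmp19, which cuts basement membrane proteins, stood at 38.1, 47.0, 40.5 and 81.3 TPM (51.7 ± 20.1, SD, n = 4), and library 4 was the highest. Mmp23 stood at 21.1, 21.9, 18.3 and 20.6 TPM (20.5 ± 1.54), the smallest highest-to-lowest ratio of the members with a mean CPM of 1 or more, at 1.18. Mmp28, a protease of skin and other epithelia, stood at 2.92, 1.98, 3.41 and 2.72 TPM (2.76 ± 0.592). Mmp21 and Mmp27 were below 1 TPM, and Mmp20, the enamel protease, was not detected.

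The 10 Mmp genes of the chromosome 9 run together gave 342, 223, 156 and 262 counts, or 17.0, 7.52, 9.34 and 11.7 TPM (11.4 ± 4.10, SD, n = 4). The other 13 Mmp genes summed to 457 ± 57.2 TPM. In the run 2 of 10 genes were expressed, 6 were below 1 TPM and 2 did not differ from it. Outside it 10 of 13 were expressed and 1 was below. Per length, Mmp3 and Mmp10 gave most of the run's sum, which was highest in library 1 and lowest in library 2. In counts the lowest was library 3, and in library 2 the longer Mmp12 gave 106 of the 223.

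The procollagen N-propeptidases, which trim the amino end of fibrillar procollagens, were all expressed. Adamts2 stood at 35.5, 64.1, 30.6 and 52.3 TPM (45.6 ± 15.4, SD, n = 4), Adamts14 at 12.5, 14.1, 15.7 and 17.4 TPM (14.9 ± 2.09) and Adamts3 at 5.43, 7.36, 3.32 and 5.25 TPM (5.34 ± 1.65). Adamts2 was above Adamts14 in 4 of 4 libraries, by 1.55 ± 0.50 on the log2 scale, and above Adamts3 in 4 of 4, by a log2 ratio of Adamts3 over Adamts2 of -3.06 ± 0.26. Adamts2 and Adamts3 were highest in library 2 and lowest in library 3.

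The proteoglycanases, which cut aggrecan and versican, included Adamts9, which had the largest ratio between cultures of the members with a mean CPM of 1 or more. It stood at 18.2, 106, 21.4 and 53.8 TPM (49.9 ± 40.8, SD, n = 4), on 2830, 16233, 2537 and 8440 counts. Libraries 2 and 4 were far above 1 and 3. Adamts1 stood at 34.6, 40.4, 19.9 and 37.8 TPM (33.2 ± 9.19), with library 3 low. The log2 ratio of Adamts1 over Adamts9 was 0.92, -1.39, -0.10 and -0.51, so per length their order changed between cultures. On CPM, Adamts9 was the higher in each library (Adamts1 at 50.1, 54.3, 28.2 and 52.1, Adamts9 at 74.9, 404, 85.9 and 210 CPM), and its 15048 exonic bases, against 8016 in its longest transcript, weigh on the value per length. Adamts4 stood at 8.97, 10.3, 7.31 and 17.0 TPM (10.9 ± 4.25), and its level is uncertain because the libraries keep no strand. Adamts8 stood at 4.47, 2.86, 3.55 and 2.81 TPM (3.42 ± 0.775).

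Adamts5, a principal aggrecanase of cartilage, stood at 1.41, 5.31, 1.26 and 1.48 TPM (2.36 ± 1.97, SD, n = 4), on 157, 582, 107 and 166 counts. Library 2 was alone high, and the mean did not differ from 1 TPM by limma (adjusted p = 0.0570) although each library exceeded it. Adamts15 stood at 1.65, 4.94, 1.79 and 3.29 TPM (2.92 ± 1.54), again highest in library 2. Adamts20, the closest relative of Adamts9, had 40, 100, 38 and 31 counts and did not differ from 1 TPM (adjusted p = 0.0787). Adamts9 exceeded Adamts20 in 4 of 4 libraries, by 5.91 ± 0.96 on the log2 scale of TPM + 0.1. Per length Adamts4 exceeded Adamts5 in 4 of 4, by 2.36 ± 1.04. On CPM the mean was 1.24, but in library 2 Adamts5 was the higher, at 14.5 against 12.6 CPM.

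Of the other Adamts genes, 4 were expressed. Adamts7, which cuts COMP, stood at 8.74, 15.7, 8.40 and 15.5 TPM (12.1 ± 4.06, SD, n = 4), and its relative Adamts12 at 3.46, 8.28, 4.37 and 6.23 TPM (5.58 ± 2.13). Both were higher in libraries 2 and 4. The fibrillin-associated Adamts10 stood at 7.76, 10.9, 8.59 and 9.66 TPM (9.22 ± 1.35) and Adamts6 at 1.85, 1.30, 1.32 and 1.94 TPM (1.60 ± 0.341). Adamts6 passed the test against 1 TPM narrowly (limma, adjusted p = 0.0412) and lost it without library 1, 3 or 4 (adjusted p = 0.126, 0.0543 and 0.156). Adamts13, which cuts von Willebrand factor and is made by hepatic stellate cells in the adult, had 4, 0, 2 and 10 counts and was below 1 TPM. Adamts16, Adamts17, Adamts18 and Adamts19 were below it as well.

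The classes were then summed per library. Timp genes summed to 586, 569, 503 and 673 TPM (583 ± 69.9, SD, n = 4), Mmp genes to 439, 485, 409 and 539 TPM (468 ± 56.6) and Adamts genes to 145, 293, 128 and 226 TPM (198 ± 76.3). Per length the inhibitors exceeded the Mmp genes in each library, with log2 ratios of 0.41, 0.23, 0.30 and 0.32 (0.32 ± 0.08, a 1.25-fold excess). On CPM the ratio was -0.22, and per length without Timp1 and Mmp2 it was 0.15. The Timp over Adamts ratio was 1.63 ± 0.49 and moved with Adamts9, whose share of the Adamts sum was 12.5%, 36.2%, 16.7% and 23.8%.

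Related genes were also set side by side as 20 pairs of log2 ratios on TPM + 0.1. In 13 pairs the first gene was higher in all 4 libraries, in 3 the second was, and in 4 the order differed. An exact two-sided sign-flip test over 4 libraries cannot go below 2 of 16 sign patterns, which is above 0.05, so the pairs are given with their spread and without a p-value. Mmp2 was above its activator Mmp14 in 4 of 4 (Mmp14 over Mmp2, -1.89 ± 0.10), and Timp2 was above Mmp14 in 4 of 4 (2.08 ± 0.12). Their size depends on the length used: with the longest transcript they were -1.14 and 1.27, and on CPM -1.07 and 1.47. Timp2 and Mmp2 were close, at 0.19 ± 0.15, with Timp2 higher in 3 of 4. Mmp14 was above Mmp16 by 5.17 ± 0.32, Timp1 above Mmp9 by 4.20 ± 0.18, Timp2 above Timp3 by 3.12 ± 0.64 and Timp3 above Timp4 by 7.51 ± 1.00, each in 4 of 4. On CPM, Timp1 over Mmp9 was 2.21 and Timp2 over Timp3 was 2.06, and with a pseudocount of 1 Timp3 over Timp4 was 4.79. Adamts10 was above Adamts6 (2.46 ± 0.42), Adamts7 above Adamts12 (1.11 ± 0.22) and Adamts17 above Adamts19 (1.02 ± 0.70), also in 4 of 4. On CPM, Adamts7 over Adamts12 was 0.33, and with the longest transcript Adamts17 over Adamts19 was 0.25. Adamts17 and Adamts19, both below 1 TPM, did not keep their order on CPM. They were equal in library 1, at 0.529 CPM. In library 3 Adamts19 was the higher, at 0.576 against 0.440 CPM. The membrane-anchored inhibitor Reck and Timp3 changed order between libraries (-0.17 ± 0.49), as did Adamts16 and Adamts18 (0.25 ± 0.36), which have few counts.

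**Figure D2:**
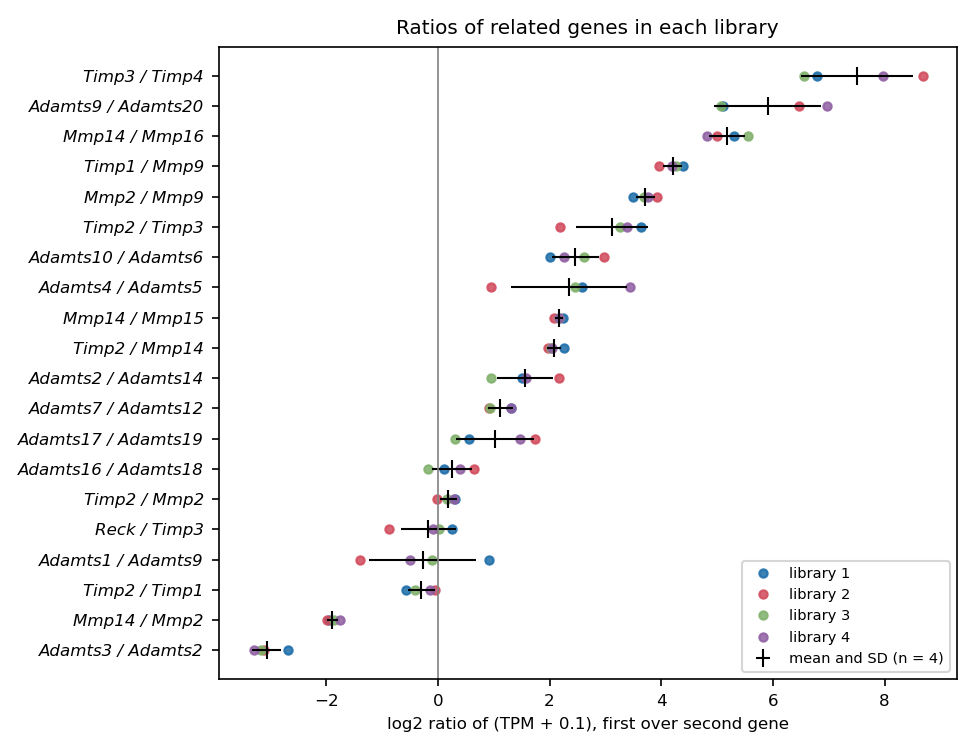
Log2 ratio of TPM + 0.1 for 20 pairs of related genes, 1 point per library, with the mean and SD (n = 4). The ratio of Mmp14 over Mmp15 varies least between libraries, at 2.16 ± 0.07 on this scale, while Adamts1 over Adamts9 lies on both sides of 0.

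The share of members that varied between cultures was above that of protein-coding genes. Among the 32 members with a mean CPM of 1 or more, the highest library was at least 2-fold over the lowest in 15, against 12.1% of protein-coding genes. At a mean CPM of 10 or more it was 6 of 19, against 4.18%. The background falls with level, so it was split: at a mean CPM from 1 to 3 the members were 5 of 7 against 48.5%, from 3 to 10 they were 4 of 6 against 24.0%, from 10 to 30 they were 2 of 9 against 7.21%, from 30 to 100 they were 3 of 6 against 3.13%, and from 100 to 300 they were 1 of 4 against 1.68%. Library 2 carried much of this, since without it 5 of 31 members passed, against 7.07%.

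**Figure D3:**
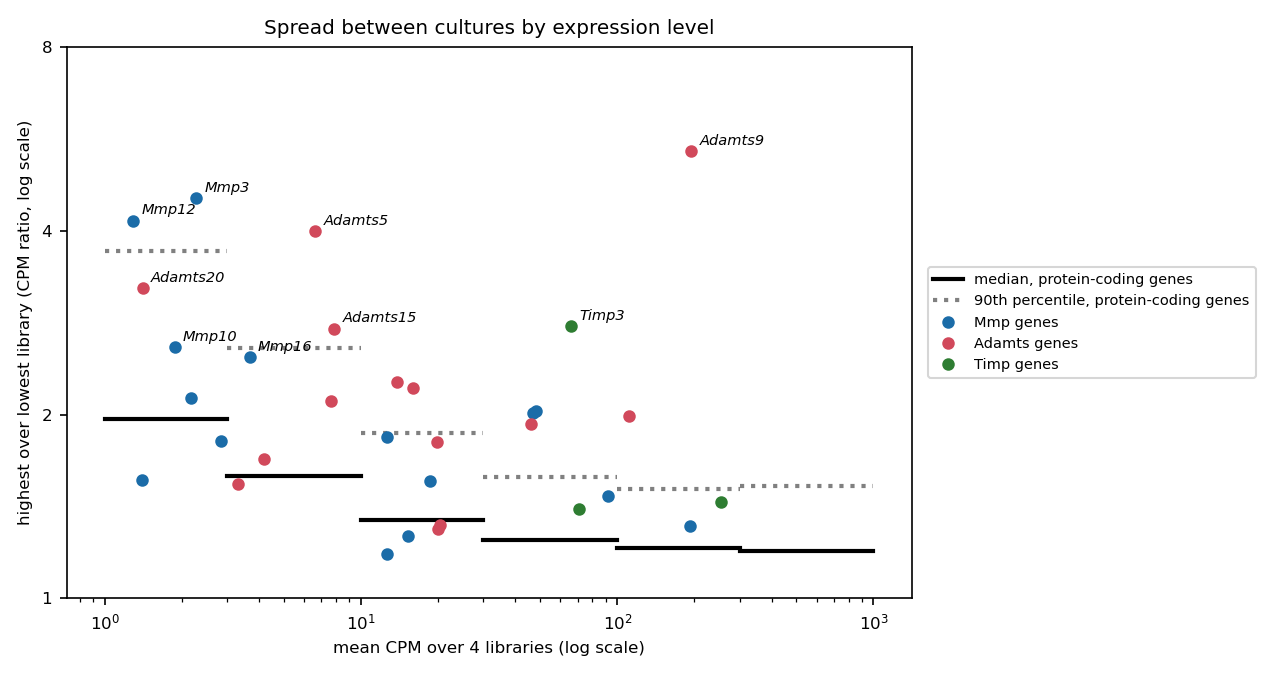
Highest over lowest library (CPM ratio, log axis) against mean CPM (log axis) for the 32 members with a mean CPM of 1 or more, with the median and the 90th percentile of protein-coding genes in each range of level. Adamts9 has a ratio of 5.40 at a mean of 194 CPM, a level where the 90th percentile is 1.51.

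The 15 genes were Adamts9 (5.40-fold), Mmp3 (4.53), Mmp12 (4.16), Adamts5 (4.00), Adamts20 (3.22), Timp3 (2.79), Adamts15 (2.77), Mmp10 (2.58), Mmp16 (2.48), Adamts4 (2.26), Adamts12 (2.21), Mmp25 (2.13), Adamts3 (2.10), Mmp19 (2.03) and Mmp11 (2.01). Library 2 was the highest for 8 of them and library 1 for 3, which are the stromelysins Mmp3, Mmp10 and Mmp11. The edgeR fit gave each gene a biological coefficient of variation, the spread between cultures beyond counting error. Its 90th percentile over 17398 genes was 0.328, and 10 of the 35 members in the fit were above it, against 10% of all genes. Adamts9 had 0.534, at the 99.5th percentile, Adamts5 0.504 and Mmp3 0.485, while Mmp2 had 0.153 and Timp1 0.140, below the median of 0.186. Without library 2 the count above the 90th percentile was 4 and the value of Adamts9 was 0.342. With no filter on low counts, 2 of the members were above that fit's own 90th percentile, a share below 10%. The excess by this measure was thus seen with the filter only. That fit takes in all 39251 genes with a count against 17398, so its percentile has another background and cannot show why the excess was lost.

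By library, 8, 11, 2 and 11 of the 32 members were highest in libraries 1, 2, 3 and 4, against 33.2%, 23.8%, 23.5% and 19.6% of protein-coding genes. Libraries 2 and 4 together were the highest for 22 of 32, against 43.4%. Marker sums of other cells differed in whether they followed these libraries. The parietal endoderm sum was 3808, 11525, 4601 and 8886 TPM, and the fibroblast and stellate cell sum was 1798, 3789, 1566 and 2606 TPM with 12 of 15 genes above 1 TPM, so both were highest in library 2. In the fibroblast and stellate list Col1a1 was the highest, at 1173 ± 446 TPM. Acta2, Pdgfra, Des and Pdgfrb stood at 124, 70.1, 66.4 and 28.3 TPM. Of these, Acta2, Pdgfra and Pdgfrb were highest in library 2. Des was lowest there, at 84.9, 52.1, 74.4 and 54.4 TPM in libraries 1 to 4. Rgs5 and Tagln stood at 1.98 and 0.957 TPM. Reln and Lrat, also stellate cell markers, were the lowest, at 0.0614 and 0.0481 TPM. Macrophage markers summed to 101, 95.7, 93.7 and 77.0 TPM, lowest in library 4. Marco had 0 counts, and 5 of 11 were above 1 TPM. Endothelial markers summed to 78.7, 85.2, 83.1 and 89.8 TPM, with 5 of 10 above 1 TPM. Trophoblast markers summed to 248, 242, 248 and 321 TPM, lowest in library 2, with 7 of 12 above 1 TPM. Visceral endoderm markers summed to 977, 1036, 1015 and 925 TPM, with 10 of 12 above 1 TPM. Their sum was highest in library 2 and lowest in library 4. The part of any of these cells in the members' spread was not tested.

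Some members, picked by name, were set against the parietal endoderm sum, and they differed in how far they followed it. The other members were not described on this scale. Per 1000 TPM of that sum, Adamts15 stood at 0.434, 0.428, 0.389 and 0.370, a highest-to-lowest ratio of 1.17 against 2.99 in TPM. Timp3 stood at 4.80, 4.79, 4.69 and 3.26, a ratio of 1.47 against 3.02. Adamts15 was nearly level on this scale, and Timp3 was level but for a lower library 4. Adamts9 stood at 4.78, 9.21, 4.65 and 6.05, a ratio of 1.98 against 5.84, so library 2 was still the highest. Adamts5 stood at 0.370, 0.460, 0.273 and 0.166, a ratio of 2.77 against 4.22, with library 4 the lowest. The ranges of Mmp2 and Timp2 widened, with ratios of 2.20 and 2.74 on this scale against 1.38 and 1.48 in TPM. That of Mmp3 rose to 12.7 against 4.19. With 4 libraries these are descriptions of the same values on another scale.

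**Figure D4:**
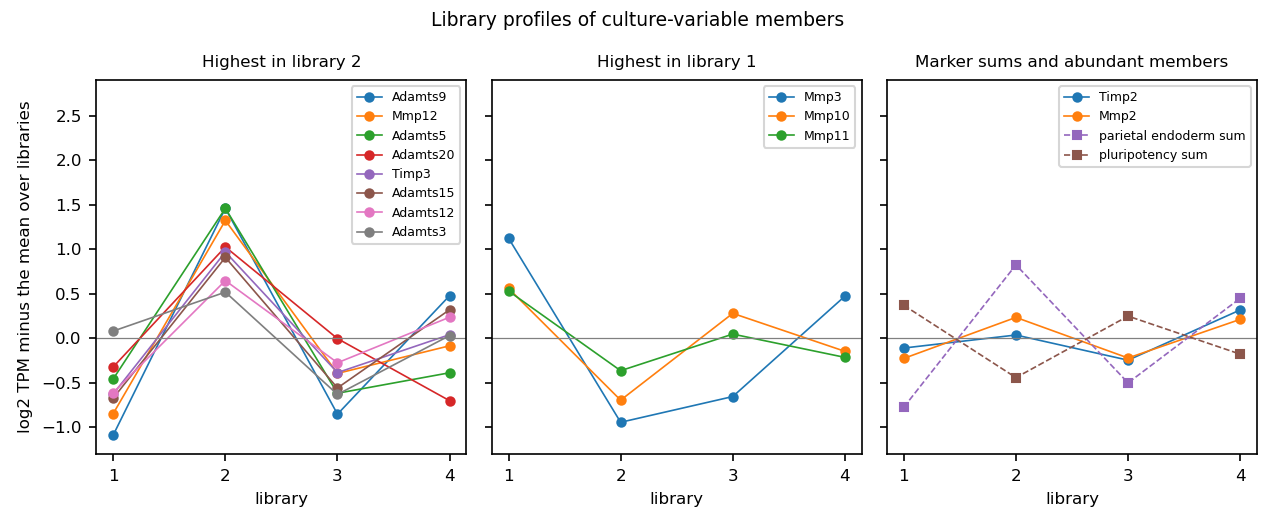
Log2 TPM minus its mean over the 4 libraries, for the variable members highest in library 2 (left), those highest in library 1 (middle), and Mmp2 and Timp2 beside the summed parietal endoderm and pluripotency markers (right); lines join the values of 1 gene or sum, and the libraries have no order. The members on the left were picked for being highest in library 2, so their shared peak follows from that choice. The parietal endoderm sum is also highest in library 2, where the pluripotency sum and the stromelysins are lowest. Not every member on the left follows that sum elsewhere: Adamts20 is lowest in library 4.

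Genes around the proteases were described from lists of the pathway. Of 15 activators and surface partners, 13 were above 1 TPM and 1 was below. Bsg, a surface glycoprotein that induces Mmp genes in neighbouring cells, led at 813 ± 51.1 TPM (SD, n = 4), followed by the lysosomal proteases Ctsl (574 ± 128) and Ctsb (333 ± 62.6). Furin, the convertase that activates Mmp11, Mmp14 and most Adamts precursors, stood at 80.6 ± 20.0 TPM. Plg, the plasminogen of liver and the source of plasmin, was the lowest, at 0.0698 TPM, while its activators Plat and Plau stood at 87.3 ± 24.3 and 14.4 ± 2.10 TPM.

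Of 15 other inhibitors and regulators, 11 were above 1 TPM and 3 below. The surface proteoglycan Sdc1 stood at 205 ± 48.2 TPM and Pcolce at 177 ± 23.9 TPM, the latter a protein that enhances removal of the other end of procollagen by Bmp1. Reck stood at 21.9, 30.04, 22.0 and 27.4 TPM (25.3 ± 4.06), and Tfpi2 was the lowest, at 0.285 TPM. Of 7 Adamts-like proteins, which lack the protease domain, 2 were above 1 TPM and 2 below: Adamtsl5 (9.10 ± 1.10 TPM) and Adamtsl4 (5.49 ± 0.701 TPM) were above, and Adamtsl1 (1.49 TPM) was the next. Adamtsl2 was the lowest at 0.0445 TPM.

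Of 16 astacin and Adam metalloproteases, 11 were above 1 TPM and 3 below. Adam9 led at 239 ± 49.5 TPM, followed by the sheddase Adam10 (141 ± 44.9) and the procollagen C-proteinase Bmp1 (89.4 ± 20.8), and Tll2 was the lowest. Of 11 proteoglycans and their linkers, 6 were above 1 TPM and 1 below. Bgn (121 ± 26.9), Fbln1 (110 ± 36.6) and Dcn (87.4 ± 58.2) were the highest and Hapln2 the lowest. Vcan, the versican cut by the proteoglycanases, stood at 37.1, 62.5, 35.6 and 73.9 TPM, higher in libraries 2 and 4, whereas the cartilage substrate Acan stood at 2.11, 0.435, 0.90 and 0.835 TPM and did not differ from 1 TPM (limma, adjusted p = 0.809). Of 18 collagen and glycoprotein substrates, 16 were above 1 TPM and none below. Col4a1 (1501 ± 905), Col1a1 (1173 ± 446) and Col4a2 (985 ± 559) led, and Comp, the substrate of Adamts7 and Adamts12, was the lowest at 0.947 ± 0.185 TPM. Substrates of basement membranes and fibrils were thus abundant, and the cartilage substrates Acan and Comp were near 1 TPM. These shares are read against the 71.5% of protein-coding genes above 1 TPM and are no test of the lists.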

How the data were processed

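The 4 libraries were polyadenylated RNA, not stranded, sequenced from both ends, per the labels' protocols. The deposited tables hold unnormalized counts for each gene, which the authors made with STAR and featureCounts on GRCm39, per the submitters' processing notes. Neither versions nor counting settings are stated in the labels or files. Even numbers made up 60.0% to 62.6% of counts from 1 to 8, a pattern seen when both ends of a pair are counted. A count of 0 then allows 6 counts rather than 3.

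TPM were computed from the counts and GENCODE M21 union-exon lengths, an annotation built on GRCm38 and used for lengths, names and neighbours only. It matched 48799 rows, holding 98.8% to 98.9% of counts. Of the 46 members, 45 are protein-coding there and Mmp1a is a polymorphic pseudogene. Exons of 13 members overlap a gene on the opposite strand. Promoters are from RefSeq on GRCm38.p6.

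Levels, as log2(TPM + 0.1), were tested against 1 TPM with limma 3.58.1 (intercept, trend, two-sided, Benjamini-Hochberg over 28006 genes). This scale understates ratios of low genes. Spread was estimated with edgeR 4.0.16 (TMM, filterByExpr). The limma test planned for gene pairs is not reported, because every ratio in it shared the second gene's spread and its pooled variance had 1000000 or more prior degrees of freedom in 8 of 20 pairs. Scripts were tested on simulated data. R 4.3.3, DESeq2 1.42.0 and Python 3.11.15 were also used. The cultures were grown separately, per the labels, so p-values reflect the spread between them. Alternatives were other pseudocounts, thresholds, filters, scalings and lengths, and each library left out.

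Named are all members, all pairs and, of each pathway list, the 3 highest and the lowest genes and any gene of a pair. The highest or lowest genes of marker lists serve as examples. Furin, Plat, Plau, Vcan, Acan, Reln, Acta2, Pdgfra, Des, Pdgfrb, Rgs5, Tagln and G6pc1 were added after their values were seen. Some listed or neighbouring genes are not reported here. The members and lists were chosen with earlier results of these data known.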

Additional observations from a re-analysis of the deposited data

Results flagged for a closer look

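Adamts5 is the result with a library far from the others. Its 4 values were 1.41, 5.31, 1.26 and 1.48 TPM, and the gap between library 2 and the next library was 0.893 of the whole range of log2(TPM + 0.1), above Dixon's critical value for 4 samples. Of 38 members tested in this way, 1 passed, and chance alone passes about 1 in 20 groups. The parietal endoderm marker sum was also highest in library 2, and its part in the value was not tested.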

How the results depend on the processing

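The calls against 1 TPM were the same in 426 of 451 comparisons of a member with an alternative, and 13 members changed a call at least once. With 10 or more counts required, 5 members were below 1 TPM in place of 13, since genes with few counts leave the fit. With a limit of 6 counts, 7 members in place of 3 were not detected. Against 2 TPM in place of 1 TPM, Mmp24 was below (-0.79 on the log2 scale, limma adjusted p = 0.0214) and Adamts6 changed sign (-0.32, adjusted p = 0.214). Mmp27 lost its call without library 1 (adjusted p = 0.0517), and Mmp12 and Adamts20 were called below 1 TPM without library 2 (adjusted p = 0.0402 and 0.0392). The count of members with a 2-fold range was 6 at a mean CPM of 10 or more and 5 to 12 with 1 library left out, lowest without library 2. The count with a coefficient of variation above the 90th percentile was 2 with no filter on low counts and 4 to 9 with 1 library left out, and the value of Adamts9 without library 2 was 0.342. The cause of these changes was not tested.

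The log2 ratio of summed Timp over summed Mmp TPM was -0.22 with CPM, 0.11 with the longest transcript as the length (chosen after seeing the data) and 0.15 without Timp1 and Mmp2. Of 178 pair ratios under alternatives, 151 stayed within the SD of the main value, 26 moved, and 1 reversed: Timp2 over Timp1 was 1.84 with CPM. All 48 list counts kept within 1.5 times. TMM scaling moved the median of all genes by -0.045 to 0.056 on the log2 scale. No paired analysis was possible because the 4 libraries form 1 group.

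Depth limits the 14 members with a mean CPM under 1, and lengths from another build limit every comparison between genes.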
